A study of Mus musculus with 12 samples.

Results

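The genes of heme breakdown and iron handling were followed in bone marrow-derived macrophages (BMDMs) on 1-colour Agilent mouse arrays. The 10 genes were *Hmox1*, *Hmox2*, *Blvra* and *Blvrb* of heme breakdown, *Slc48a1* and *Fech* of heme transport and synthesis, *Fth1* and *Ftl1* of iron storage, *Slc40a1* of iron export and *Tfrc* of iron uptake. The rule behind the choice names their known roles and uses no measured value, although the genes were chosen with earlier results of these data known. Of the 32301 genes or transcripts on the array they were 10, all 10 had a probe, and each was well above background on all 12 arrays. Macrophages of C57BL/6 mice, 8 weeks of age, were grown from bone marrow with the growth factor M-CSF for 7 days. WT cells were compared with KpCKO cells, in which both *Keap1* alleles are floxed (*Keap1* flox/flox) and deleted by a Cre recombinase under the lysozyme M promoter (*LysM*-Cre), which is active in the myeloid lineage. Cells of both genotypes received no stimulus (Con) or were stimulated for 6 h with LPS and IFNγ (M1) or with IL-4 (M2), which gave 6 groups of 2 arrays. There were 4 mice, 1 of each genotype in each of 2 cultures, male in culture 1 and female in culture 2, and the Con, M1 and M2 cells of a mouse share their source.

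Keap1 is the adaptor that sends the transcription factor Nrf2 to degradation, and many Nrf2 targets carry an antioxidant response element (ARE) near their start. Macrophages take up aged red cells and recycle their iron. Heme oxygenase opens the heme ring and releases iron, carbon monoxide and biliverdin, and biliverdin reductase turns biliverdin into bilirubin. The freed iron is stored in ferritin or leaves the cell through ferroportin, the product of *Slc40a1*. *Hmox1* is widely used as a marker of Nrf2 activity, and it also answers to heme itself and to inflammatory signals.

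Promoter sequence from RefSeq (GRCm38.p6) was at hand for 6 of the 10 genes, *Blvra*, *Blvrb*, *Ftl1*, *Hmox2*, *Tfrc* and *Fth1*, in 11 windows that reach from 250 bases before a transcript start to 50 bases after it. An ARE core was searched as TGACNNNGC or TGAGNNNGC on both strands. It was found in 2 of these 11 windows, which is 18.2%, against 27.8% of 32851 windows of all genes and 12 of 27 windows of other Nrf2 targets, which is 44.4%. Some genes have more than 1 window. Counted by gene it was 2 of 6, against 8314 of 27025 of all genes and 12 of 21 other Nrf2 targets. With TGACNNNGC alone it was 1 of 11 windows against 12.4% of all. The stretch of 250 bases before the start is printed for 3 genes, on the strand of the gene, with a match in capitals. *Blvrb*, which was higher in KpCKO cells in each of the 3 conditions, holds a TGAGNNNGC match on the opposite strand, 69 bases before the start. *Blvra*, the other biliverdin reductase, holds a TGACNNNGC match on the opposite strand, 49 bases before the start. *Ftl1* is shown as a gene that was higher in KpCKO cells in M1 and whose window holds no match.
Blvrb, chr7:27447728-27447977, plus strand: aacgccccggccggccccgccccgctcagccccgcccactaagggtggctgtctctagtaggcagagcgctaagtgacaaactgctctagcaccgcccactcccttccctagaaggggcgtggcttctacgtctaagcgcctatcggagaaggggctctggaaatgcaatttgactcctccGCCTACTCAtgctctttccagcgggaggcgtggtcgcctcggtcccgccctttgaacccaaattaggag
Blvra, chr2:127070407-127070656, plus strand: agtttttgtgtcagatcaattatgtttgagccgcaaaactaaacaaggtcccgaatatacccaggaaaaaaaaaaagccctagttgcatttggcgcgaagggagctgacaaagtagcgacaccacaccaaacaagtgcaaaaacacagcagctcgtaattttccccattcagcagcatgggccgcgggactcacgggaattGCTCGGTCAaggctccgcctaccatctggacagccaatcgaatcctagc
Ftl1, chr7:45459887-45460136, minus strand: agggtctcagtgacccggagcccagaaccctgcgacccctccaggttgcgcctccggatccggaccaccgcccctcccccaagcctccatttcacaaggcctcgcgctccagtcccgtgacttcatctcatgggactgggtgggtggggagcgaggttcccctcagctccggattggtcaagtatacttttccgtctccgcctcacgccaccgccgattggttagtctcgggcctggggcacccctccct

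Levels are given on a log2 scale on which the 75th percentile of the array is 0, so that they can be compared between arrays for 1 gene and not between genes. The 75th percentile of the signal was 548 to 757 on the WT M1 arrays, 787 to 906 on the KpCKO M1 arrays and 966 to 1166 on the 8 others. Each of the 3 slides held the 4 arrays of 1 condition, so that KpCKO and WT were compared within a slide, whereas M1 and M2 against Con cannot be told apart from the slide. On each slide WT lay at positions 1 and 3 and KpCKO at 2 and 4, so that genotype and position cannot be told apart. *Keap1* was lower in KpCKO cells, by 1.46, 1.71 and 1.81 on the log2 scale in Con, M1 and M2 (adjusted p = 0.0334, 0.00769 and 0.0162). The markers of macrophages with a probe, 7 of 8 listed, were well above background in every group, with a summed level of 405 to 1041 times the 75th percentile. That level was lower in KpCKO than in WT cells in each condition, at 405 to 469 against 583 to 639 in Con, 560 to 661 against 833 to 1041 in M1 and 414 to 452 against 488 to 545 in M2, and the part of this in the differences between genotypes was not tested. The single markers differed. In Con and M2 only *Cd14* passed limma's test (−1.19 and −0.86). In M1 *Adgre1* (−0.39), *Itgam* (−0.65), *Fcgr1* (−1.20) and *Cd14* (−1.33) passed, and *Csf1r* (0.11), *Mertk* (−0.40) and *Lyz2* (−0.50) did not. Of the markers of red cell precursors, 7 of 8 had a probe, and their summed level was between 0.0868 and 0.186 on the same scale in every group. Between 2 and 4 of these 7 were well above background on both arrays of a group, and *Epb42* was not on any array. In BMDMs, fewer cells of a kind and less RNA per cell cannot be told apart.

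KpCKO cells had more *Blvrb* and *Tfrc* RNA than WT cells in Con, more *Slc48a1*, *Tfrc*, *Fech*, *Blvrb* and *Ftl1* RNA in M1, and more *Blvrb* RNA in M2. The test was limma's, across all genes with Benjamini-Hochberg adjustment and culture as a block, and a gene is said to rise, fall or differ where its adjusted p was under 0.05. The 10 genes gave 2 calls in Con, where 2.21% of 22367 genes tested were called, 5 in M1, where 16.0% of 22354 were called, and 1 in M2, where 1.93% of 22365 were called. All 8 of these calls were higher in KpCKO. The median difference of the 10 genes was 0.14 in Con, 0.60 in M1 and 0.37 in M2, beside 0.00, −0.09 and 0.02 for all genes tested. With only the 4 arrays of 1 condition in the model none of the 8 calls was kept. That model has 1 residual degree of freedom, and it called 0 of all genes tested in each condition. With 2 arrays in a group the precision is low. The methods' t-test with Benjamini-Hochberg adjustment also left 0 calls over all genes in each of the 3 comparisons.

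**Figure D1:**
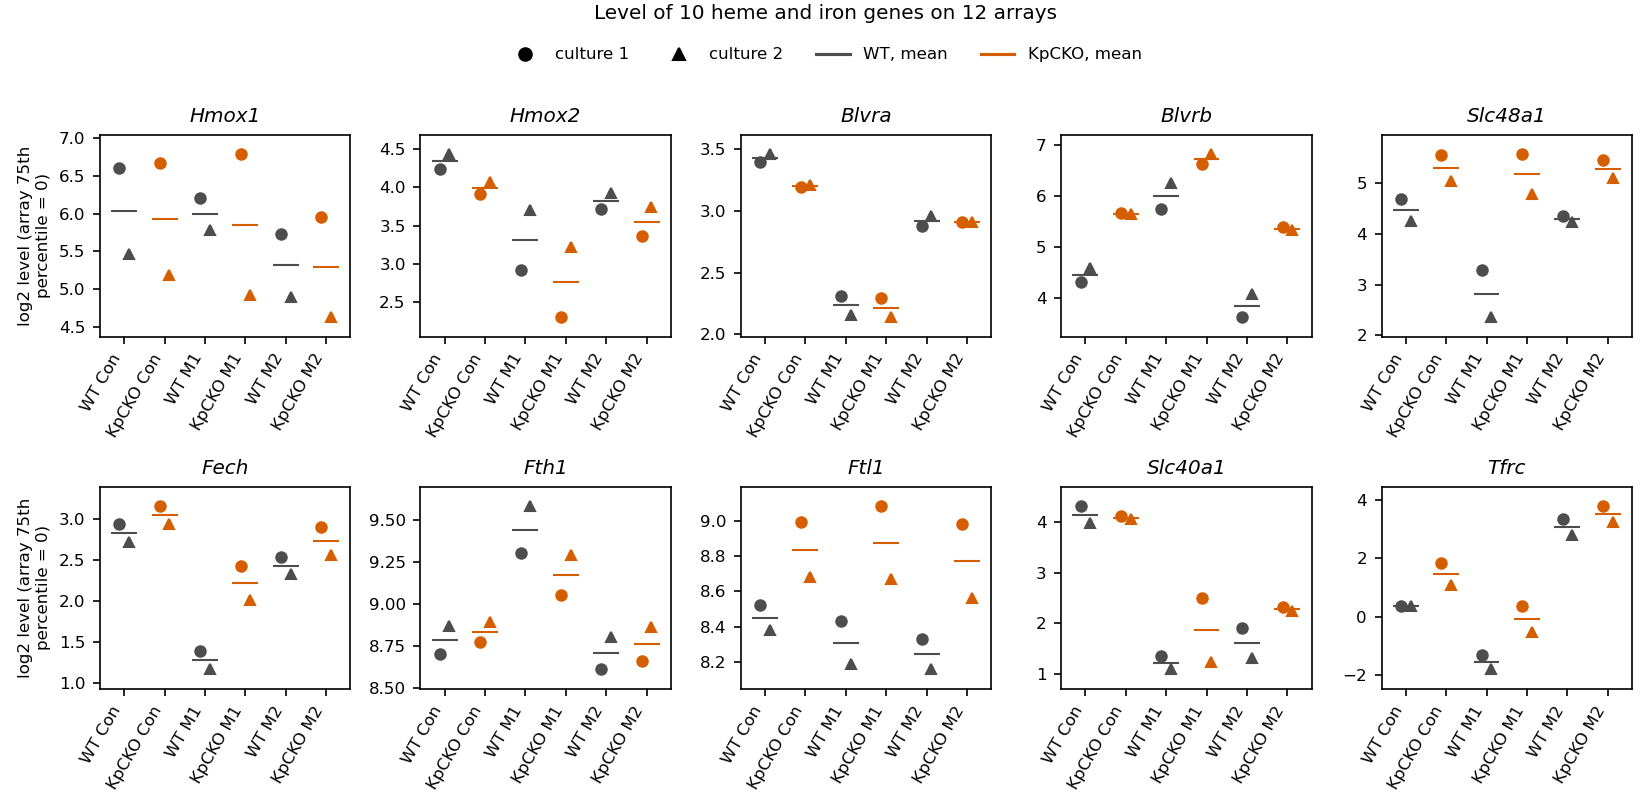
Level of each of the 10 genes on the 12 arrays (vertical axis, log2 signal with the 75th percentile of the array at 0, its own range in each panel), by group. Circles are culture 1, triangles culture 2, lines the mean of 2 arrays, grey WT and orange KpCKO. *Hmox1* is parted by culture in all 6 groups, and *Blvrb*, *Slc48a1*, *Ftl1* and *Fech* by genotype in all 3 conditions. *Tfrc* is parted by stimulus within a genotype, and *Slc40a1* is higher in Con than in M1 or M2, which overlap.

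**Figure D2:**
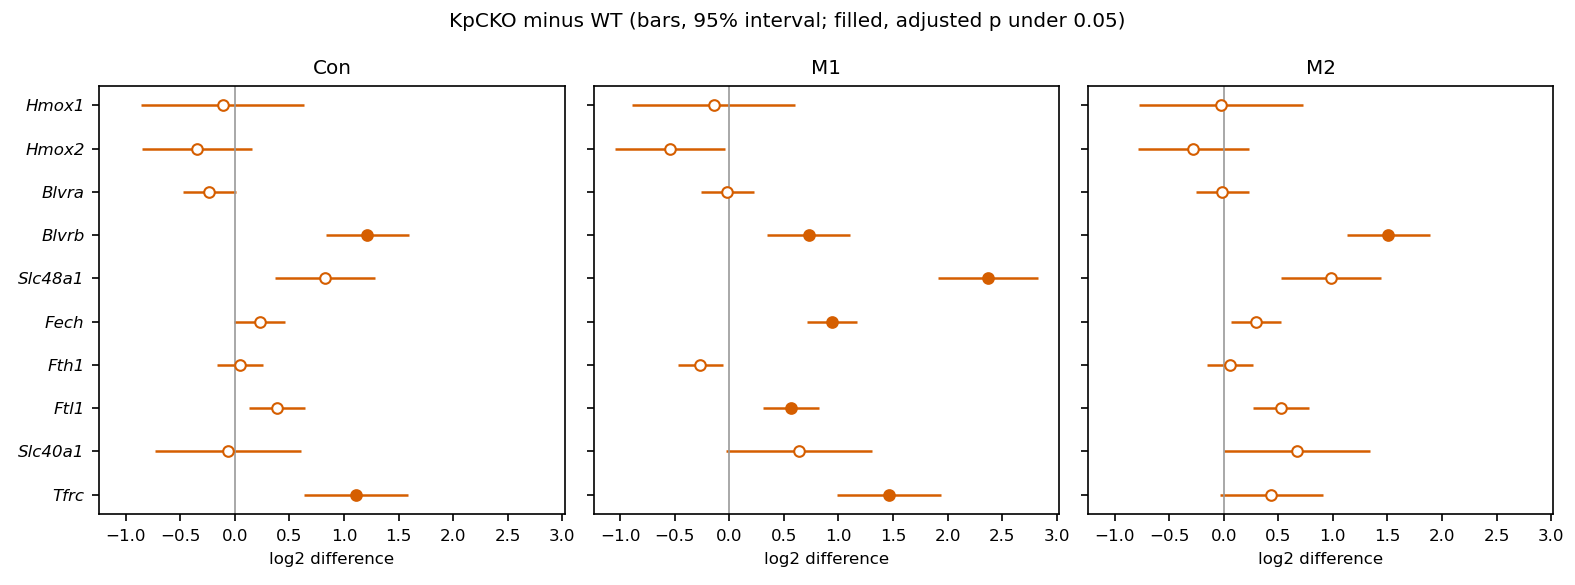
Difference of KpCKO from WT cells (horizontal axis, log2) in Con, M1 and M2 for the 10 genes. Points are limma's estimates, bars their 95% intervals, and filled points have an adjusted p under 0.05. *Slc48a1* in M1 lies farthest to the right at 2.37, and *Hmox1* has an interval that spans 0 in all 3 panels.

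Among the enzymes of heme breakdown, *Hmox1*, the inducible heme oxygenase, differed more between the cultures than between the genotypes. Its log2 level in cultures 1 and 2 was 6.61 and 5.47 (WT) against 6.67 and 5.19 (KpCKO) in Con, 6.21 and 5.78 against 6.79 and 4.92 in M1, and 5.73 and 4.90 against 5.96 and 4.63 in M2. WT and KpCKO values overlapped in all 3 conditions, and the lowest and the highest value of a condition were those of the 2 KpCKO cultures. KpCKO cells differed from WT cells by −0.11 in Con (95% interval −0.86 to 0.64, adjusted p = 0.955), by −0.14 in M1 (−0.89 to 0.61, adjusted p = 0.781) and by −0.03 in M2 (−0.77 to 0.72, adjusted p = 0.988). These intervals hold changes of up to 1.65-fold upward, so that a rise of *Hmox1* up to that size was not excluded. In M1 the difference was 0.58 in culture 1 and −0.87 in culture 2, and it turned positive without the WT M1 array of culture 2 (0.31) or the KpCKO M1 array of culture 2 (0.27), and 0.09 with quantile normalization. Culture 1 was above culture 2 in 6 of 6 groups, by 0.43 in WT M1 to 1.88 in KpCKO M1, with an estimate of 1.18 (95% interval 0.75 to 1.61, adjusted p = 0.0102). The fit counts the Con, M1 and M2 arrays of a mouse as separate, so that this interval and p do not measure the spread between mice. M1 stimulation moved *Hmox1* by −0.05 in WT and −0.08 in KpCKO cells, and M2 stimulation by −0.73 and −0.64, with adjusted p of 0.906, 0.860, 0.164 and 0.248. The M1 values depend on the scaling: with quantile normalization they were −0.86 in WT, past the test (adjusted p = 0.0309), and −0.58 in KpCKO cells (adjusted p = 0.127).

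The comparison of culture 1 with culture 2 was added after the values were seen. It rests on 1 mouse of each genotype in each culture. The arrays of a mouse are counted as separate, so that its calls do not measure the spread between mice. Of the 10 genes 6 were called in it, where 18.4% of 22367 genes tested were called: *Hmox1*, *Tfrc* at 0.54, *Slc48a1* at 0.53, *Ftl1* at 0.28 and *Fech* at 0.27 were higher in culture 1, and *Fth1* was lower by 0.20 on the log2 scale. Culture, sex of the mice and position on the slide cannot be told apart. On each slide culture 1 lay at positions 1 and 2 and culture 2 at positions 3 and 4. Neutrophil markers moved with culture as well: 5 of the 6 that could be tested were higher in culture 1, among them *Ngp* by 2.44 and *S100a9* by 1.31. Their summed level was 13.0 to 16.5 times the 75th percentile on the arrays of culture 1 and 3.15 to 9.76 on those of culture 2. Of the 7 neutrophil markers with a probe, 5 or 6 were well above background on both arrays of a group, and *Elane* was not on any array. Of the 7 macrophage markers 3 were lower in culture 1, *Adgre1* at −0.30, *Itgam* at −0.41 and *Cd14* at −0.48, and none was higher. The part of these cells in the culture difference was not tested. Leaving out 1 array at a time left the culture difference of *Hmox1* past the test in 12 of 12 cases, at 1.04 to 1.33, whereas the number of called genes fell to between 1 and 5.

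Among the 5 genes whose levels followed *Hmox1* most closely over the 12 arrays, by Pearson's r among 17176 genes well above background on all of them, were *Mex3d*, an RNA-binding protein (r = 0.943), *Asxl1*, a Polycomb-associated protein (r = 0.942), *Osbpl1a*, an oxysterol-binding protein (r = 0.941), and the transcript *AK147382* (r = 0.938). The 12 arrays share 4 mice and 3 slides, so that r is a description. None of these 4 was among the 24 other Nrf2 targets listed here. That list is short beside the 17176 genes searched, so that nothing is concluded from this.

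Of 24 other Nrf2 targets listed, 23 could be tested, and the number higher in KpCKO cells was 19 in Con (82.6%), 19 in M1 (82.6%) and 17 in M2 (73.9%), beside 2.21%, 16.0% and 1.93% of all genes tested. None was lower. Without the replicate block it was 15, 15 and 13, where 192, 1193 and 193 of all genes tested were called. With the groups compared alone it was 0 in each, as it was over all genes tested. Their median difference was 1.35, 1.30 and 1.47 in the conditions Con, M1 and M2, and their ranges were 0.21 to 5.54, 0.09 to 7.90 and 0.13 to 6.31. For 3 of them, taken by the brightness of their probes, which does not rank RNA levels between genes, the values are given: *Taldo1* of the pentose phosphate pathway, with 0.86, 1.30 and 1.02 in Con, M1 and M2, the autophagy receptor *Sqstm1*, with 0.49, 1.12 and 0.48, and the peroxiredoxin *Prdx1*, with 1.33, 0.54 and 1.47. *Taldo1* passed the test in all 3 conditions, *Sqstm1* in M1 and *Prdx1* in Con and M2. Without 1 of the arrays compared, 6 to 10 of the targets passed in Con, 10 to 15 in M1 and 5 to 13 in M2, again with none lower. *Hmox1* lay below this list: 20 of the 23 targets in Con, 19 in M1 and 20 in M2 had a difference above the upper end of its 95% interval. Set culture by culture, *Hmox1* in culture 2 was below all 23 targets in Con, M1 and M2, and in culture 1 it was above 1, 3 and 1 of them. The difference between *Hmox1* and these targets was not tested. The list was chosen with earlier results of these data known, so that its shares of calls and the place of *Hmox1* below it are a description.

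**Figure D3:**
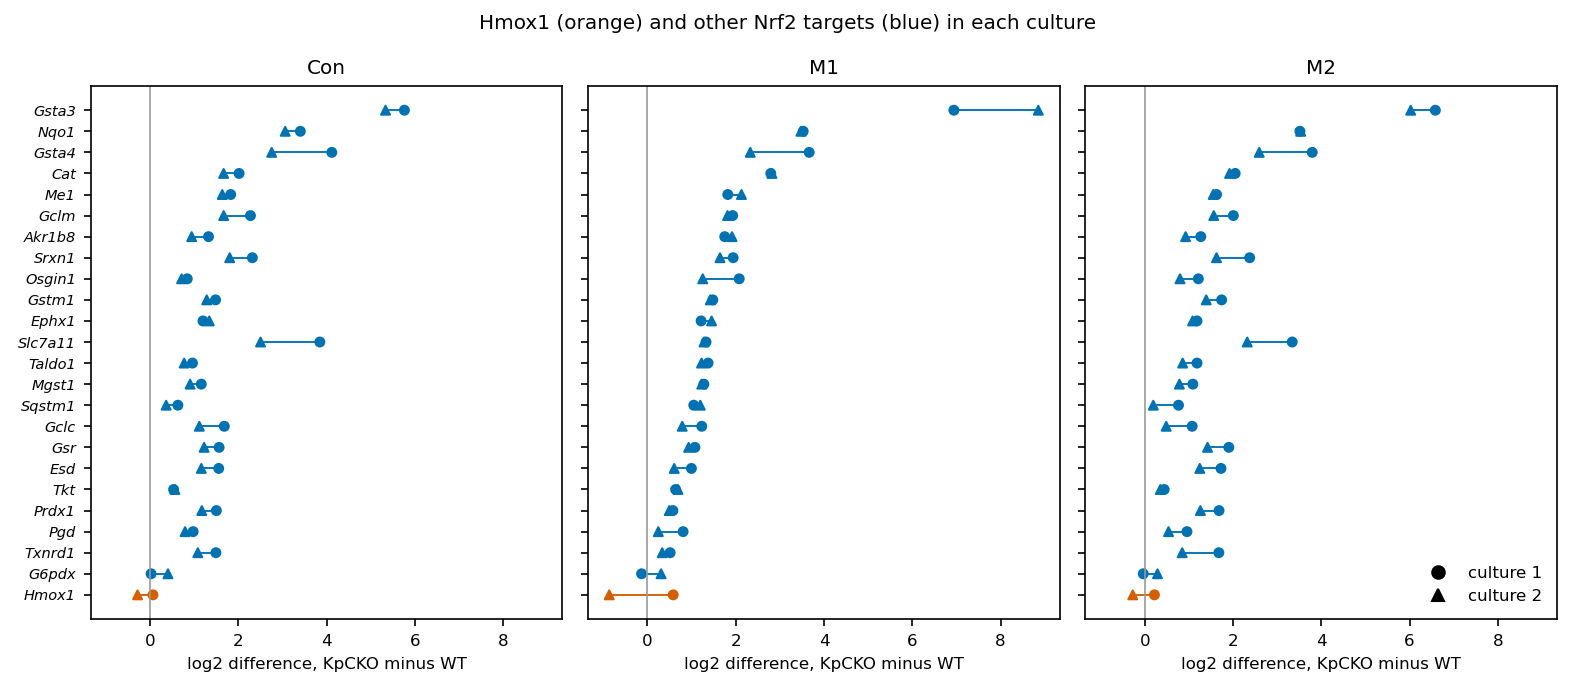
Difference of KpCKO from WT cells (horizontal axis, log2) in each culture, for *Hmox1* in orange and 23 other Nrf2 targets in blue, ordered by their difference in M1. Circles are culture 1, triangles culture 2, and lines join them. *Hmox1* has the lowest value of the list in culture 2, and its cultures lie on opposite sides of 0, in all 3 panels.

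*Hmox2*, the constitutive heme oxygenase, fell with M1 stimulation in both genotypes. Its log2 level in cultures 1 and 2 was 4.24 and 4.43 (WT) against 3.91 and 4.07 (KpCKO) in Con, 2.92 and 3.70 against 2.31 and 3.22 in M1, and 3.72 and 3.93 against 3.36 and 3.74 in M2. The M1 arrays lay below the Con arrays of the same genotype without overlap. The fall was 2.04-fold in WT (−1.03, adjusted p = 0.00488) and 2.34-fold in KpCKO cells (−1.22, adjusted p = 0.00301). KpCKO was below WT in 6 of 6 pairs of the same culture and condition, by −0.35, −0.54 and −0.28 in Con, M1 and M2, none past the test (adjusted p = 0.572, 0.127 and 0.637).

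Of the biliverdin reductases, *Blvrb*, whose product also reduces flavins, was higher in KpCKO cells under all 3 conditions, and *Blvra*, the biliverdin reductase A gene, was not called in any. The log2 level of *Blvrb* in cultures 1 and 2 was 4.30 and 4.58 (WT) against 5.66 and 5.64 (KpCKO) in Con, 5.74 and 6.25 against 6.62 and 6.82 in M1, and 3.62 and 4.07 against 5.38 and 5.33 in M2. Every KpCKO array lay above both WT arrays of its condition. The difference was 2.32-fold in Con (1.21, 95% interval 0.83 to 1.59, adjusted p = 0.0153), 1.66-fold in M1 (0.73, 0.35 to 1.11, adjusted p = 0.0294) and 2.85-fold in M2 (1.51, 1.13 to 1.89, adjusted p = 0.00778). Without any 1 of the 4 arrays the call was lost in Con, at 1.07 to 1.36 with adjusted p of 0.0574 to 0.136, and in M1, at 0.56 to 0.90 with adjusted p of 0.0523 to 0.134. In M2 it was lost without the culture 1 array of WT or of KpCKO, with adjusted p of up to 0.0782. M1 stimulation raised *Blvrb* 2.94-fold in WT (1.56, adjusted p = 0.000188) and 2.10-fold in KpCKO cells (1.07, adjusted p = 0.00152), which with quantile normalization was 0.80 and 0.50. M2 stimulation lowered it 1.51-fold in WT (−0.59, adjusted p = 0.0485), a call that was lost without any 1 of the 4 arrays, at −0.72 to −0.46.

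The log2 level of *Blvra* in cultures 1 and 2 was 3.40 and 3.46 (WT) against 3.19 and 3.21 (KpCKO) in Con, 2.31 and 2.16 against 2.29 and 2.14 in M1, and 2.88 and 2.96 against 2.91 and 2.91 in M2. In M1 and M2 the genotypes overlapped, with differences of −0.02 (95% interval −0.26 to 0.22) and −0.01 (−0.25 to 0.23). In Con it was −0.23 (−0.48 to 0.01, adjusted p = 0.379). M1 stimulation lowered *Blvra* 2.29-fold in WT and 1.98-fold in KpCKO cells (adjusted p = 8.44e-05 and 0.000325), so that the reductases *Blvra* and *Blvrb* moved in opposite directions under M1. M2 stimulation lowered it 1.43-fold in WT (−0.51, adjusted p = 0.0190), which was lost without any 1 of the 4 arrays (adjusted p of 0.0777 to 0.135), and by −0.29 in KpCKO cells (adjusted p = 0.127).

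*Slc48a1* encodes the heme transporter HRG1, which moves heme out of the phagolysosome after red cells have been taken up. Its log2 level in cultures 1 and 2 was 4.70 and 4.26 (WT) against 5.57 and 5.04 (KpCKO) in Con, 3.28 and 2.36 against 5.58 and 4.79 in M1, and 4.36 and 4.23 against 5.46 and 5.11 in M2. The WT M1 arrays stood apart at the low end and every KpCKO array lay above both WT arrays of its condition. In M1 the difference was 5.16-fold (2.37, 95% interval 1.91 to 2.83, adjusted p = 0.00125), the largest of the 30 differences between genotypes among the 10 genes, and it remained past the test without any 1 of the 4 arrays, at 2.13 to 2.60. In Con it was 0.82 (0.37 to 1.28, adjusted p = 0.0976) and in M2 0.99 (0.53 to 1.44, adjusted p = 0.0634), neither past the test, although in M2 it passed under 6 of 16 alternatives. M1 stimulation lowered *Slc48a1* 3.17-fold in WT cells (−1.66, adjusted p = 0.000319), whereas the value in KpCKO cells was −0.12 (−0.58 to 0.34, adjusted p = 0.637). With quantile normalization the fall was −2.11 in WT and, past the test as well, −0.63 in KpCKO cells (adjusted p = 0.0206). The response of the genotypes differed by 1.55 (0.90 to 2.19, adjusted p = 0.106), which did not pass. It passed without the WT M1 array of culture 1 (1.78, adjusted p = 0.0339) and with trended and robust variances. The other probe of the gene gave 1.84 for KpCKO against WT in M1, −0.89 for the M1 response in WT, 0.22 for that in KpCKO and 1.11 for the difference of the responses.

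*Fech*, ferrochelatase, inserts iron into protoporphyrin in the last step of heme synthesis. Its log2 level in cultures 1 and 2 was 2.94 and 2.72 (WT) against 3.16 and 2.95 (KpCKO) in Con, 1.39 and 1.17 against 2.43 and 2.01 in M1, and 2.54 and 2.33 against 2.91 and 2.56 in M2. The WT M1 arrays were again the lowest. KpCKO cells were 1.92-fold higher in M1 (0.94, 95% interval 0.71 to 1.17, adjusted p = 0.00289), a call that held without any 1 of the 4 arrays, and by 0.23 and 0.30 in Con and M2 (adjusted p = 0.365 and 0.228). M1 stimulation lowered *Fech* 2.93-fold in WT (−1.55, adjusted p = 2.45e-05) and 1.78-fold in KpCKO cells (−0.84, adjusted p = 0.000507). The difference of these responses, 0.72 (0.39 to 1.04, adjusted p = 0.118), did not pass. M2 stimulation lowered it in WT by 0.39 on the log2 scale (adjusted p = 0.0372), which was lost without any 1 of the 4 arrays, at −0.43 to −0.36. The other probe of *Fech* gave 0.85 for KpCKO against WT in M1, −1.58 and −0.95 for the M1 responses, and −0.18 for the M2 response in WT (adjusted p = 0.253), which did not pass.

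For the ferritin chains that store iron, *Ftl1*, the light chain, was higher in KpCKO cells in M1 and *Fth1*, the heavy chain with the ferroxidase activity, was not. The log2 level of *Ftl1* in cultures 1 and 2 was 8.52 and 8.38 (WT) against 8.99 and 8.68 (KpCKO) in Con, 8.43 and 8.19 against 9.08 and 8.67 in M1, and 8.33 and 8.16 against 8.98 and 8.56 in M2. Every KpCKO array was above both WT arrays of its condition. The difference was 1.48-fold in M1 (0.57, 95% interval 0.31 to 0.82, adjusted p = 0.0193), 0.39 in Con (0.13 to 0.64, adjusted p = 0.154) and 0.53 in M2 (0.27 to 0.78, adjusted p = 0.0721). In M1 the call was lost without either WT array or without the KpCKO array of culture 1, with adjusted p of up to 0.109, and at 0.49 to 0.64 over the 4 cases. With quantile normalization the difference in M1 was 1.01. The M1 response of *Ftl1* was −0.14 in WT and 0.04 in KpCKO cells (adjusted p = 0.289 and 0.777), but with quantile normalization it was −1.04, past the test, and −0.32.

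The log2 level of *Fth1* in cultures 1 and 2 was 8.70 and 8.87 (WT) against 8.77 and 8.89 (KpCKO) in Con, 9.30 and 9.58 against 9.05 and 9.29 in M1, and 8.61 and 8.80 against 8.66 and 8.86 in M2. The M1 arrays were the highest, and the M1 response was 1.57-fold in WT (0.65, adjusted p = 0.000642) and 1.27-fold in KpCKO cells (0.34, adjusted p = 0.0157). This rise moved with the scaling. KpCKO differed from WT by 0.05, −0.26 and 0.06 in Con, M1 and M2, none past the test (adjusted p = 0.919, 0.0848 and 0.857). Before scaling the signal of *Fth1* lay between 418532 and 493613 on all 12 arrays, a 1.18-fold range, and it was 474365 and 478026 in WT Con and 476161 and 418532 in WT M1, while the 75th percentile of the arrays was lower in M1. With quantile normalization the M1 response was −0.27 in WT and −0.06 in KpCKO cells, the opposite direction. The median M1 response of all genes tested was 0.13 in WT and 0.03 in KpCKO cells and became −0.08 and −0.06 with quantile normalization. Relative to that median the *Fth1* response was 0.53 and 0.32. The brightest *Fth1* and *Ftl1* signals were 63.4% and 75.6% of the saturation value of the scanner, and no spot of any array was marked as saturated.

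*Slc40a1*, the gene of ferroportin, the exporter of iron, fell with both stimuli in both genotypes. Its log2 level in cultures 1 and 2 was 4.31 and 3.98 (WT) against 4.11 and 4.06 (KpCKO) in Con, 1.35 and 1.09 against 2.49 and 1.23 in M1, and 1.90 and 1.31 against 2.32 and 2.24 in M2. The 4 Con arrays lay above all 8 others. M1 lowered it 7.59-fold in WT (−2.92, 95% interval −3.59 to −2.26, adjusted p = 0.000139) and 4.68-fold in KpCKO cells (−2.23, −2.90 to −1.56, adjusted p = 0.000718). M2 lowered it 5.81-fold in WT (−2.54, −3.21 to −1.87, adjusted p = 0.00276) and 3.49-fold in KpCKO cells (−1.80, −2.47 to −1.13, adjusted p = 0.0137), the last of which was lost without any 1 of the 4 arrays, at −2.03 to −1.57. KpCKO cells differed from WT cells by −0.06 in Con, 0.64 in M1 and 0.67 in M2 (adjusted p = 0.973, 0.163 and 0.348). In M1 the cultures differed, with 1.13 in culture 1 and 0.14 in culture 2, and without the KpCKO array of culture 2 the value was 1.13 and past the test (adjusted p = 0.0219).

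*Tfrc*, the transferrin receptor through which cells take up iron, fell with M1, rose with M2 and was higher in KpCKO cells in Con and M1. Its log2 level in cultures 1 and 2 was 0.35 and 0.36 (WT) against 1.85 and 1.08 (KpCKO) in Con, −1.30 and −1.80 against 0.35 and −0.52 in M1, and 3.35 and 2.80 against 3.78 and 3.25 in M2. Within a genotype the 3 conditions did not overlap. M1 lowered it 3.74-fold in WT (−1.90, adjusted p = 0.000201) and 2.93-fold in KpCKO cells (−1.55, adjusted p = 0.000769). M2 raised it 6.59-fold in WT (2.72, adjusted p = 0.000718) and 4.14-fold in KpCKO cells (2.05, adjusted p = 0.00281). KpCKO cells were above WT cells 2.16-fold in Con (1.11, 95% interval 0.64 to 1.58, adjusted p = 0.0444) and 2.75-fold in M1 (1.46, 0.99 to 1.94, adjusted p = 0.00729), with 0.44 in M2 (−0.04 to 0.91, adjusted p = 0.386). The call in Con was lost without either KpCKO array or without the WT array of culture 1, with adjusted p of up to 0.275, at 0.78 to 1.43 over the 4 cases, and that in M1 held in all 4.

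Set together by stimulus, 8 of the 10 genes responded to M1 in WT cells, 6 down and 2 up (*Blvrb*, and *Fth1* with the opposite sign under quantile normalization), where 63.2% of 22356 genes tested were called. In KpCKO cells 7 of the 10 responded, 5 down and the same 2 up, *Fth1* again with the opposite sign under quantile normalization, beside 50.2% of 22362, and *Slc48a1* was the gene called in WT and not in KpCKO cells, where it was called with quantile normalization. Under that scaling 9 genes were called in WT, beside 14481 of 22356 genes tested, and 8 in KpCKO cells, beside 11809 of 22362. *Fth1* was no longer called in either. *Hmox1* and *Ftl1* were called as falls in WT, and *Ftl1* and *Slc48a1* as falls in KpCKO cells. The median M1 response of the 10 genes was −1.11 in WT and −0.48 in KpCKO cells. M2 changed 5 of the 10 in WT cells, 4 down and 1 up, beside 16.8% of 22366 genes tested, and *Slc40a1* down and *Tfrc* up in KpCKO cells, beside 10.2% of 22366. The median M2 response was −0.45 and −0.29. Without any 1 array of the groups compared, 2 calls were left for M2 in WT and 1 in KpCKO cells, namely *Slc40a1* and *Tfrc*, and *Tfrc*. None of the 10 genes differed between the genotypes in the M1 response, where 0.0716% of 22354 genes tested did (16 genes by limma, and 3668 at an unadjusted p under 0.05), or in the M2 response, where 0.00894% of 22365 did (2 genes, and 452 at an unadjusted p under 0.05). The M1 and M2 comparisons of a genotype share its Con arrays. Over all genes, too, fewer were called for M2 without any 1 of the arrays compared.

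**Figure D4:**
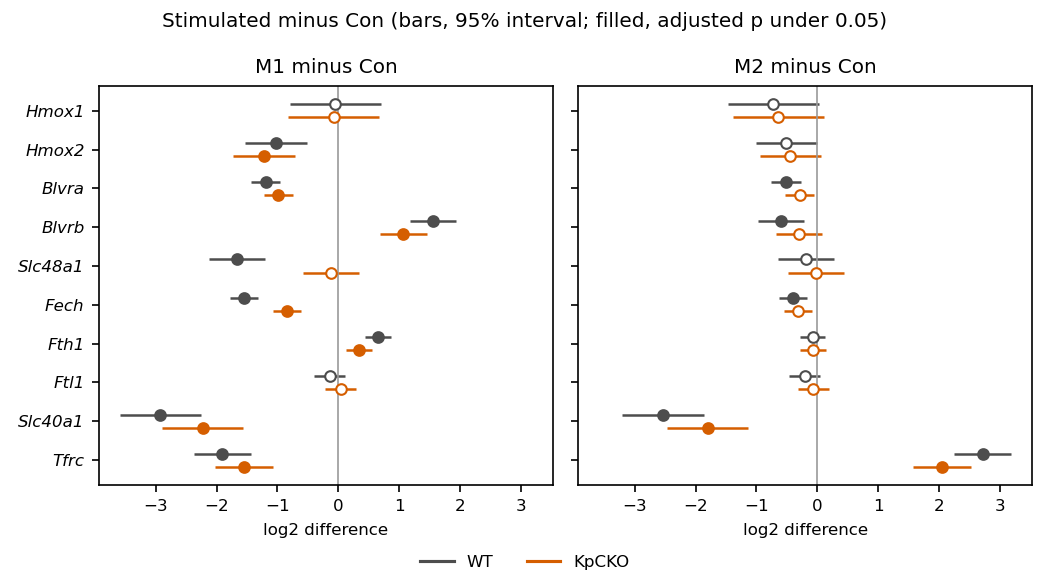
Response to M1 and to M2 (horizontal axis, log2 difference from Con) of the 10 genes in WT (grey) and KpCKO cells (orange). Points are limma's estimates, bars their 95% intervals, and filled points have an adjusted p under 0.05. *Slc40a1* lies to the left in both panels, *Tfrc* to the left in M1 and to the right in M2, and *Slc48a1* and *Fech* have lower M1 values in WT than in KpCKO cells.

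Further genes of heme and iron metabolism were read from a list of 44, of which 41 could be tested and *Alas2*, *Steap4* and *Hamp* were not well above background in any group. In KpCKO against WT cells 3 were called in Con (7.32%, beside 2.21% of all genes tested) and 4 in M2 (9.76%, beside 1.93%), all higher, and 17 in M1 (41.5%, beside 16.0%), 13 higher and 4 lower, and the median of the 41 was 0.02 in Con and in M2 and 0.21 in M1. The genes called in Con were *Alas1*, the rate-limiting enzyme of heme synthesis, *Slc11a1*, the metal transporter of the phagosome also called Nramp1, and *Heph*, the ferroxidase hephaestin that works with ferroportin. All 3 were called in M1 and M2 as well. The log2 level of *Alas1* in cultures 1 and 2 was 3.16 and 3.17 (WT) against 5.33 and 4.89 (KpCKO) in Con, 4.22 and 4.24 against 6.18 and 5.97 in M1, and 3.84 and 4.29 against 5.59 and 5.33 in M2, which gave differences of 1.95, 1.84 and 1.40 (adjusted p = 0.00640, 0.00352 and 0.0234). *Slc11a1* was higher by 1.38, 1.56 and 1.72 (adjusted p = 0.0284, 0.00738 and 0.0125) and *Heph* by 4.47, 3.94 and 3.99 (adjusted p = 0.000462, 0.000551 and 0.000828). The WT signals of *Heph* were close to background, 11 to 20, and 1 of the 2 WT M1 arrays was not well above it, so that its difference in M1 rests in part on a signal at background.

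In M1, where the call rate over all genes was highest among the genotype comparisons, *Alas1* and *Alad* (0.65) of heme synthesis were higher in KpCKO cells, and no gene of heme synthesis was lower. Of 8 genes of heme transport and scavenging 3 were higher, the heme carrier *Slc46a1* (1.15), the hemopexin receptor *Lrp1* (1.10) and the heme exporter *Flvcr1* (0.63). Of 7 genes of iron uptake and reduction 3 were higher, *Slc11a1*, *Slc39a14* (0.87) and *Steap3*. The *Steap3* probe was not well above background on either WT M1 array, with signals of 5 and 5, against 23 and 12 on the KpCKO M1 arrays. Its call (limma, adjusted p = 0.0446) rests on signals close to background, and the sign was the opposite under normexp background correction. Of 4 genes of storage and iron chaperones *Ncoa4*, the receptor for the degradation of ferritin, was higher (0.88). Among genes of iron sensing and of heme-responsive control *Aco1*, the iron-regulatory protein IRP1, was higher (0.51), and *Hif1a* (−0.97) and *Nfe2l2*, the gene of Nrf2 (−0.62), were lower. The ferroxidase *Cp* was lower (−1.84) beside the higher *Heph*, and of 7 mitochondrial genes the cysteine desulfurase *Nfs1* was higher (0.56) and the iron importer *Slc25a28* lower (−0.99). Without the KpCKO M1 array of culture 1 these calls fell to 5 higher and 1 lower, without the WT M1 array of culture 2 to 7 higher and 2 lower, with normexp to 7 higher and 3 lower, without the replicate block to 6 higher and 2 lower, and with the groups compared alone or the methods' t-test after adjustment to 0. Over all genes tested the 3579 calls became 896 with normexp and 1193 without the replicate block. With the groups compared alone or that t-test after adjustment they became 0. M1 itself changed 33 of the 41 in WT cells, 17 up and 16 down, which is 80.5% beside 63.2% of all genes tested, and 30 in KpCKO cells, 15 up and 15 down, which is 73.2% beside 50.2%. These counts with quantile normalization became 12 up and 17 down and 11 up and 15 down. Over all genes the calls were then 14481 of 22356 in WT and 11809 of 22362 in KpCKO cells. Of the 7 genes of heme synthesis, *Alas1* rose with M1 in both genotypes (1.07 and 0.97) and 5 fell in each.

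**Figure D5:**
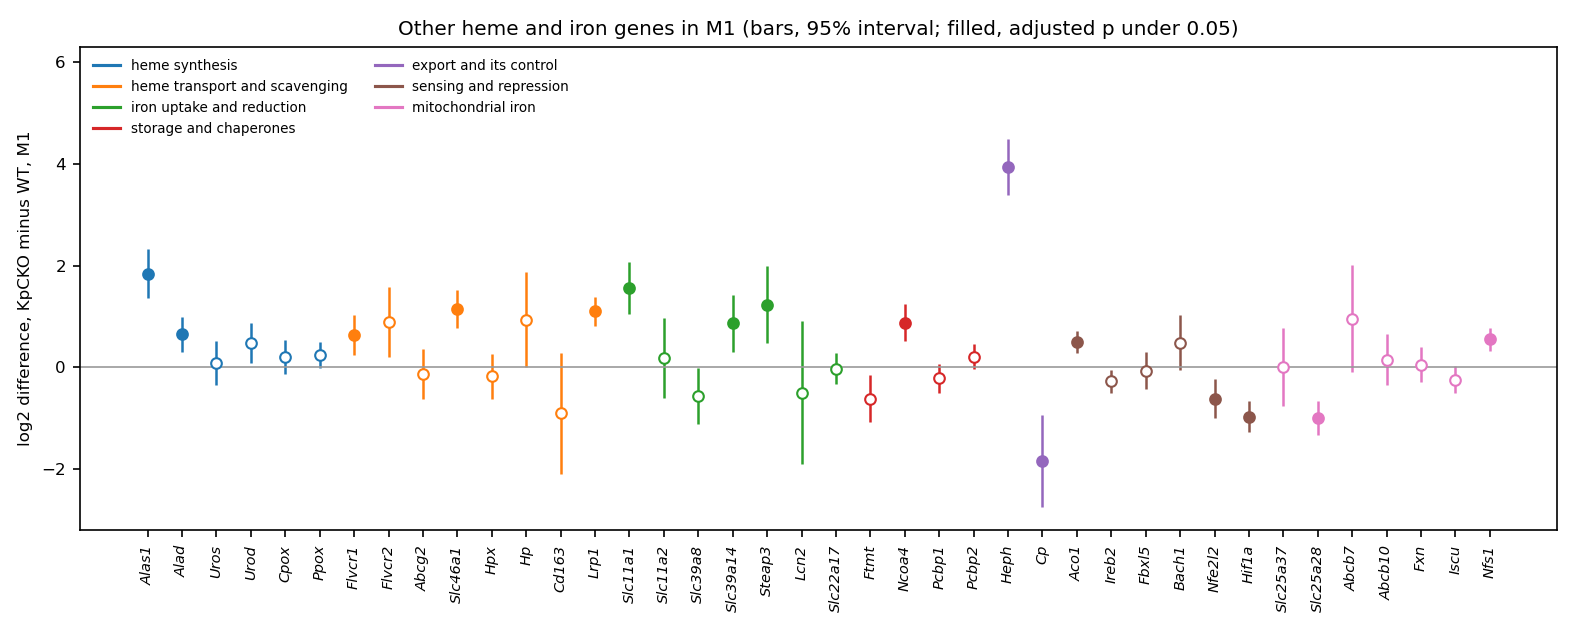
Difference of KpCKO from WT cells in M1 (vertical axis, log2) for 40 of the 41 further genes of heme and iron metabolism, coloured by role. Points are limma's estimates, bars their 95% intervals, and filled points have an adjusted p under 0.05. Of the 16 filled points 12 lie above 0 and 4 below.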

How the data were processed

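The 12 arrays were Agilent whole-genome mouse arrays with 1 colour (Cy3), scanned and read, per the labels, with Agilent Feature Extraction 10.7.3.1. The deposited scanner files hold intensity values per spot, and the background-subtracted intensity was used. The deposited log2 matrix of the authors was normalized in GeneSpring. Over 40749 shared probes its differences between arrays had slopes of 0.999674 to 1.00037 on log2 intensity less the 75th percentile, so that it holds these values centred per probe. Its column medians lie between −0.0695 and 0.306, and it served as an alternative.

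Spots of a probe were averaged and log2 intensity less the 75th percentile of the array was taken. The brightest probe stood for a gene, named from the files. A gene entered the test if some group had it well above background on each of its 2 arrays, which left 22367 of 32301. limma 3.58.1 in R 4.3.3 was fitted on group and culture over all 12 arrays with 5 residual degrees of freedom, with Benjamini-Hochberg adjustment over all genes tested, and was tested on simulated data. The culture numbers of the labels mark animals of 1 sex, and arrays of the same culture deviated together in 15 of 15 pairs of groups (correlation 0.162 to 0.597), so that culture was a block. An exact permutation test of 2 against 2 arrays cannot go below p = 0.333. Within a group the arrays come from different mice. Alternatives were quantile normalization, normexp background correction with an offset of 50, the matrix of the authors, no filter or a filter on all 12 arrays, the mean of the probes, no block, the mouse as a random block, trended and robust variances, the groups compared alone, the methods' t-test, and leaving out each array. All arrays of a condition lay on 1 slide, and the fit on the groups compared alone is the within-slide value for the genotypes. The number of arrays limits the precision. The 10 genes, the gene lists and the markers were chosen with earlier results of these data known. Genes named beside the 10 were *Keap1*, the list members that passed the test, 3 Nrf2 targets taken by the mean brightness of their probes, which does not rank RNA levels between genes, and the genes among the 5 whose level correlated best with *Hmox1*. Some genes of these lists are not reported here. Promoters of *Hmox1*, *Slc40a1*, *Slc48a1* and *Fech* were not used here.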

Additional observations from a re-analysis of the deposited data

Results flagged for a closer look

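The difference of KpCKO from WT cells in *Fth1* lay above 0 in both cultures in Con, at 0.07 and 0.02, and below 0 in both cultures in M1, at −0.24 and −0.28. The estimated difference between the genotypes in the M1 response was −0.31 on the log2 scale (95% interval −0.61 to −0.02), which did not pass limma's test (adjusted p = 0.287). With quantile normalization this difference was 0.22, the opposite sign.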

How the results depend on the processing

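For the single values of the 10 genes, 1044 of 1212 alternative values had the same direction and the same side of the threshold, 108 lost the call, 24 gained one and 36 turned the direction. Among the 31 values past the test, 390 of 500 were the same, 108 lost the call and 2 turned, both the M1 response of *Fth1* under quantile normalization (−0.27 in WT and −0.057 in KpCKO). Quantile normalization also turned *Fth1* between genotypes (−0.037 in Con, 0.18 in M1, −0.11 in M2) and in the difference in M1 response (0.22), *Blvra* in M1 (0.065), *Ftl1* in the M1 response of KpCKO (−0.32), and *Hmox1* in M1 (0.091) and in the difference in M1 response (0.29). Normexp turned *Blvra* (0.051) and *Hmox1* (0.10) between genotypes in M2 and *Ftl1* in the M1 response of KpCKO (−0.027), and the mean of the probes turned *Slc48a1* there (0.051). Leaving out 1 array turned no value that was past the test. For *Hmox1* it gave −0.30 to 0.071, −0.60 to 0.31 and −0.23 to 0.18 between genotypes in Con, M1 and M2, −0.48 to 0.42 for the difference in M1 response, and −0.50 to 0.41 and −0.49 to 0.34 for the M1 response of WT and KpCKO. For the other genes it gave −0.098 to 0.059 and −0.072 to 0.05 for *Blvra* between genotypes in M1 and M2, −0.0019 to 0.095 for *Fth1* and −0.29 to 0.17 for *Slc40a1* in Con, −0.031 to 0.11 and −0.15 to 0.021 for the M1 and M2 responses of *Ftl1* in KpCKO, and −0.28 to 0.041, −0.13 to 0.084 and −0.43 to 0.055 for *Slc48a1* in the M1 and M2 responses of KpCKO and the M2 response of WT. The number of the 10 genes past the test between genotypes in Con, 2, became 1 with normexp or no filter, 0 without the replicate block, 0 with the groups compared alone or the methods' t-test with Benjamini-Hochberg, and 0 to 1 without 1 array. In M1 the 5 became 2 without the replicate block, 0 with the groups compared alone or the methods' t-test at p under 0.05 or adjusted, and 3 to 5 without 1 array. In M2 the 1 became 2 with quantile normalization, normexp, the mean of the probes or the methods' t-test at p under 0.05, 3 with trended and robust variances or the filter on all 12 arrays, 0 with the groups compared alone or the adjusted t-test, and 0 to 1 without 1 array. The M1 responses, 8 in WT and 7 in KpCKO, became 5 and 2 with the methods' t-test and 2 and 0 after adjustment. The M2 responses, 5 in WT and 2 in KpCKO, became 3 and 4 with the t-test and 0 and 0 after adjustment. In WT they became 3 with no filter or no replicate block and 2 without any 1 array, and in KpCKO 4 with quantile normalization, 0 with the groups compared alone and 1 without any 1 array. The difference in M1 response, 0, became 1 with trended and robust variances and 0 to 1 without 1 array, and the culture difference, 6, became 3 with no filter and 1 to 5 without 1 array. Over all genes, normexp called 168 against 495 between genotypes in Con, 896 against 3579 in M1, 222 against 431 in M2, 1651 and 675 against 3766 and 2281 for M2 in WT and KpCKO, and moved the median difference in M1 to −0.21 and in M2 to −0.22. Without the replicate block 192, 1193 and 193 genes were called between genotypes in Con, M1 and M2, and with the groups compared alone 0 in each. For the M1 response quantile normalization called 14481 genes in WT and 11809 in KpCKO, against 14137 and 11230. With 2 arrays a group, differences of 2-fold were often missed, and values that did not pass are not shown to be equal. The cause of these changes was not tested.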
